A study of Homo sapiens with 6 samples.

Results

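The genes described here are 42 genes that mark the epithelium of the gut and the mucins that coat it, measured in HCC-LM3 cells with and without a knockdown of ASPP2. They were taken from a list of gene symbols, matched to the array by gene identifier (EPCAM is called TACSTD1 there and AGR3 BCMP11), and all 42 of 42 were found among the 23593 named genes of the array. Where a gene had several features, which are sets of 3 probes, the brightest on average over both groups stood for it. Intensities are therefore a description, and the list itself was drawn up with earlier results of these arrays known, so that no count over it is independent evidence.

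HCC-LM3 is a human cell line whose label is hepatocarcinoma. In the shASPP2 group the cells were infected with a lentivirus that carries an shRNA against ASPP2, the product of TP53BP2, and in the shNon group with a lentivirus that carries a control shRNA, so both groups went through infection. RNA was taken 1 week later from 3 separate cultures per group, and each was read on its own 1-colour NimbleGen array. The sources used here do not give the shRNA sequences or say whether infected cells were selected or cloned.

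The arrays were alike in brightness, with medians over all features from 111 to 122. A row of 2508 random-sequence probes gave the level of unspecific signal, 30.6 ± 0.170 in shASPP2 and 32.6 ± 0.752 in shNon (SD, n = 3). A two-sided exact permutation test of this row gave p = 0.1, and 3 arrays against 3 allow no smaller p. TP53BP2 had an intensity of 197 ± 43.5 in shASPP2 and 424 ± 81.9 in shNon (SD, n = 3). Its groups did not overlap, and its log2 fold change was -1.11 (SE 0.249, limma adjusted p = 0.204); the adjusted p was 0.0256 when limma's prior variance followed the intensity and was fitted robustly, called trend and robust variance below. A bulk array cannot tell less RNA per cell from fewer cells that make it. The HCC-LM3 label was set against 14 hepatocyte genes, of which 8 were above 2 times the random-probe level and 6 were not. APOA1, APOB, TTR, SERPINA1, AHSG and HP, which encode abundant secreted liver proteins, were the 6 below it, and albumin (ALB) was above it at 2.66 times in shNon, with 68.4 ± 4.69 in shASPP2 and 86.5 ± 5.74 in shNon (SD, n = 3). The fibrinogen genes FGA, FGB and FGG, APOH, TF and AMBP were well above it.

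Gut epithelium carries tall absorptive cells with a brush border of enzymes and transporters, and goblet cells that secrete gel-forming mucins together with trefoil factors. Other mucins stay in the apical membrane, where a long glycosylated stalk shields the cell and the tail can signal. The homeobox factors CDX1 and CDX2 set the intestinal programme, with GATA and Krüppel-like factors beside them, while ATOH1 and SPDEF direct the secretory branch. Liver, like gut epithelium, arises from endoderm, and several of these genes are switched on in tumours of the liver, bile ducts, pancreas and stomach.

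Part of the list gave a signal above that of the random-sequence probes, and part did not. Of the 42 genes, 27 had a mean above 2 times the random-probe level, called the line below, in the group where they were higher. This is 64.3%, next to 63.8% of all genes, so the share itself does not set these genes apart. The 27 include the adhesion genes LGALS4, CDH17, CEACAM1, CEACAM5, CEACAM6 and TSPAN8, the secretory genes AGR2 and TFF1, the mucins MUC1, MUC4, MUC5AC, MUC13, MUC17 and MUC20, the brush border genes VIL1, DPP4 and ANPEP, the ubiquitin ligase TRIM31, and CDX2, KLF4, KLF5, GATA4, GATA6 and SPDEF among the factors. REG4, ANXA13 and GPA33 were also counted, at 3.41, 3.51 and 2.18 times that level in shNon, and GPA33 was the nearest above the line. The other 15 lay between 0.878 and 1.77 times the random-probe level, with MUC12 the nearest below the line. They were CEACAM7, EPCAM, AGR3, OLFM4, TFF2, TFF3, MUC2, MUC5B, MUC12, FABP2, GUCY2C, MEP1A, SI, CDX1 and ATOH1. Their group means lay between 25.1 and 54.1 in shASPP2 and between 28.6 and 53.9 in shNon, and their log2 fold changes ran from -0.57 to 0.28 with limma adjusted p from 0.543 to 0.995. That a feature was not above the line does not show that the transcript was missing.

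**Figure D1:**
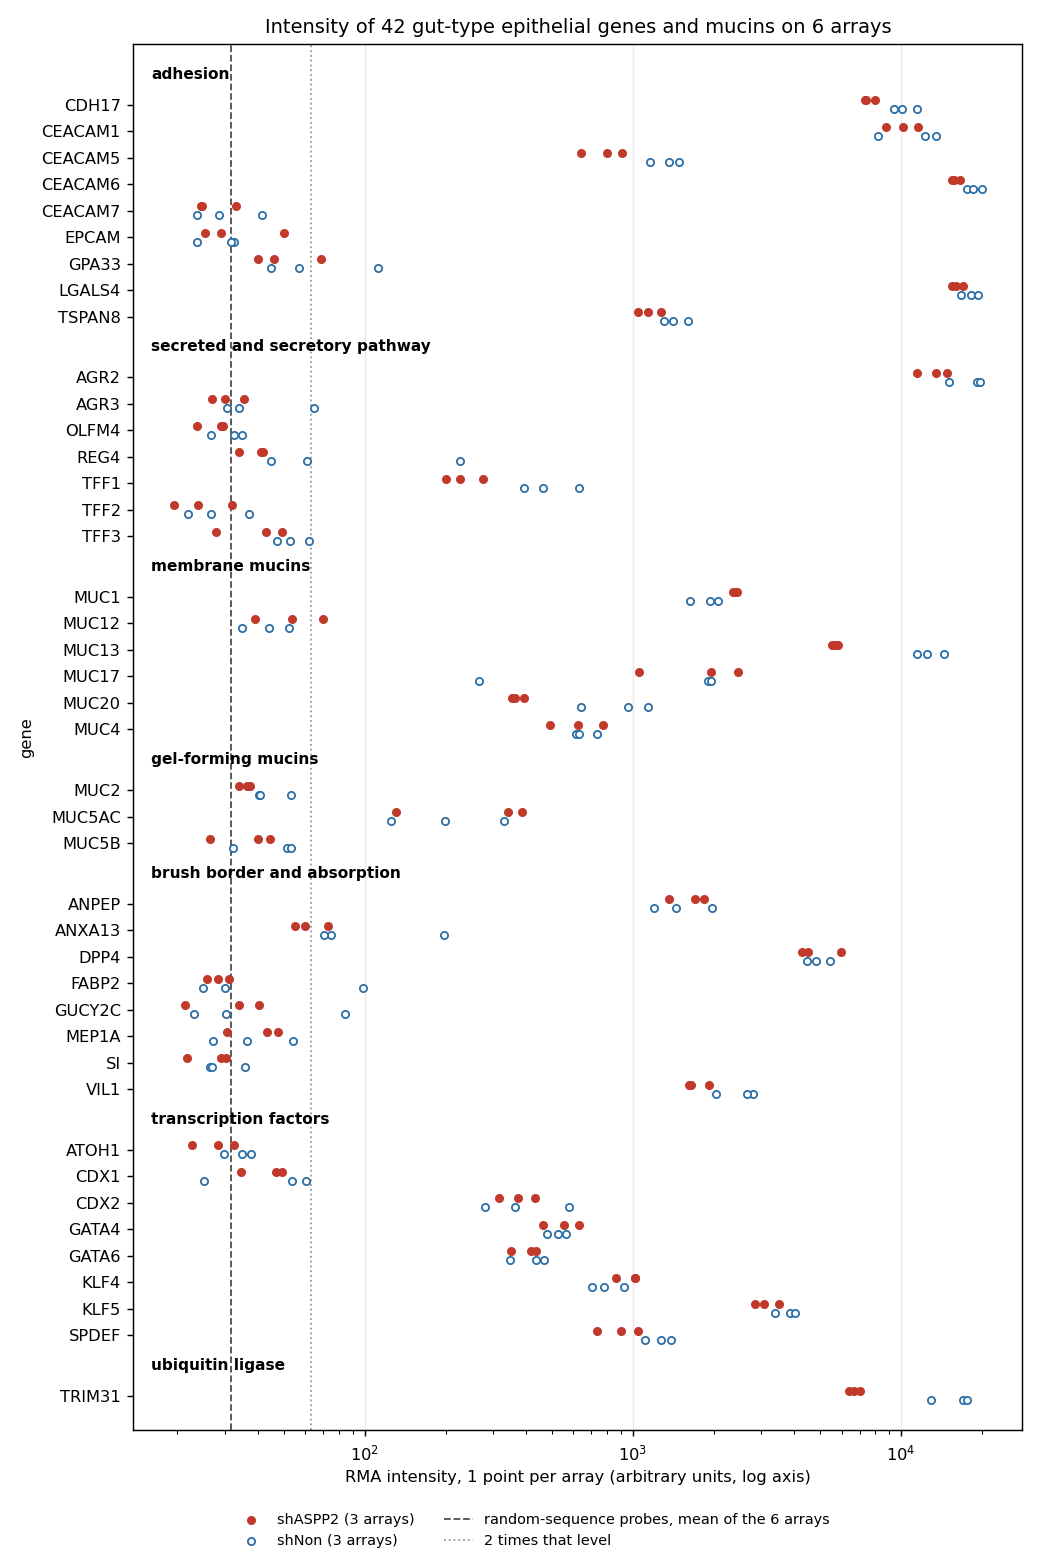
RMA intensity of the 42 genes on a log axis, 1 point per array, filled red for the 3 shASPP2 arrays and open blue for the 3 shNon arrays, grouped by role and in alphabetical order within a role. The dashed line is the mean level of the random-sequence probes and the dotted line 2 times that level; 27 genes have a group mean past 2 times the level of their own group and 15 do not.

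No gene of the list passed the test between the groups. Over all 23593 genes, limma with Benjamini-Hochberg adjustment called 24 genes, 10 higher and 14 lower in shASPP2, which are 0.0424% and 0.0593% of all genes and 0.102% together. After median centring the split was 9 higher and 20 lower, and after cyclic loess 8 higher and 17 lower. Of the 42 genes 0 were called in either direction by these fits. With no adjustment, 8 of the 42 had p under 0.05 and were lower in shASPP2, next to 5.93% of all genes, and 0 were higher, next to 5.54%. With trend and robust variance 5 of the 42 passed as lower (1.15% of all genes) and 0 as higher (0.996%). They were MUC13, TRIM31, MUC20, CEACAM5 and TFF1. Leaving out dim features before the adjustment, 3 passed as lower among features above the median level (1.25% of the genes tested). Among features above 2 times the random-probe level 2 did (0.325%). The latter filter went by the higher group mean, so it was not independent of the comparison. Without the variance model, 13 of the 42 had all 3 shASPP2 arrays below all 3 shNon arrays, next to 9.52% of all genes, and 1 had them all above, next to 9.3%. Among the 27 above 2 times the random-probe level the counts were 12 lower and 1 higher, next to 11.4% and 12.3% of all genes above it. MUC2 was the dim one. A gene enters the 27 through its higher group, and REG4 is among the 12 through shNon alone, at 1.27 times that level in shASPP2. Of the 42 fold changes 33 were negative, with a median of -0.24 log2 against 0.01 over all genes. The per-array medians of the 42 log2 intensities were 8.44, 8.52 and 8.60 in shASPP2, against 8.65, 8.74 and 8.96 in shNon. Since the list was drawn up with results of this comparison known, these counts and medians describe the 42 genes and are not a test of them.

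Among the membrane mucins, MUC13 and MUC20 were lower in shASPP2 and MUC1 was higher, each without overlap between the groups and none past the test. MUC13 is a short membrane mucin of the intestinal surface (chromosome 3, 126106978 to 126136270, hg18). Its intensity was 5824, 5513 and 5669 on the shASPP2 arrays, against 12522, 11473 and 14399 on the shNon arrays. The 3 knockdown values lie close together and far below the controls. The means were 5668 ± 156 in shASPP2 and 12798 ± 1482 in shNon (SD, n = 3), and the log2 fold change was -1.17 (SE 0.170, limma adjusted p = 0.103). With trend and robust variance the limma adjusted p was 7.11e-06. Leaving out dim features before the adjustment, it was 0.0153 above the median level and 0.0419 above 2 times the random-probe level. The last filter went by the higher group mean and was not independent of the comparison, so its adjusted p is a description.

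TRIM31, an E3 ubiquitin ligase of the tripartite motif family that is found mainly in the gut (chromosome 6, 30178652 to 30188846, hg18), differed in much the same way. Its intensity was 6692, 6997 and 6376 on the shASPP2 arrays, against 16989, 12937 and 17665 on the shNon arrays. All knockdown arrays lay far below all control arrays, and the control arrays were the more scattered. The means were 6689 ± 311 in shASPP2 and 15864 ± 2557 in shNon (SD, n = 3), and the log2 fold change was -1.23 (SE 0.188, limma adjusted p = 0.103). With trend and robust variance its limma adjusted p was 7.46e-06. It was 0.0185 among features above the median level and 0.0469 among those above 2 times the random-probe level, with the limit just given for that filter. Both MUC13 and TRIM31 have a single feature on the array, so no further probes bear on them.

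The start regions of these 2 genes are shown because they had the smallest p-values of the list and the same direction. They run from 250 bases before to 50 bases after the start of the RefSeq gene (GRCh38.p14, minus strand, 5′ to 3′ along the gene): chr3:124934702-124935001 for MUC13 and chr6:30113041-30113340 for TRIM31. Capitals mark matches on either strand to 6 short motifs, TTTATG for CDX factors, AGATAA for GATA factors, GTTAAT for HNF1, TGTTTAC for FOXA, CCACCC for Krüppel-like factors and TATAAA for the TATA box. On opposite strands the CDX and TATA box motifs are alike in most letters, but no stretch can match both.
MUC13: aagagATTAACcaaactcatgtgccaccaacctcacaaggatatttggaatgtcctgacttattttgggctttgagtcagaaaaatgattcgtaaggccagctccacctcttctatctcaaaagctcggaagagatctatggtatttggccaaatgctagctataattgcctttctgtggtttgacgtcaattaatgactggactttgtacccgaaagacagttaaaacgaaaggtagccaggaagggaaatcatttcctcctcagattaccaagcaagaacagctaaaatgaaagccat
TRIM31: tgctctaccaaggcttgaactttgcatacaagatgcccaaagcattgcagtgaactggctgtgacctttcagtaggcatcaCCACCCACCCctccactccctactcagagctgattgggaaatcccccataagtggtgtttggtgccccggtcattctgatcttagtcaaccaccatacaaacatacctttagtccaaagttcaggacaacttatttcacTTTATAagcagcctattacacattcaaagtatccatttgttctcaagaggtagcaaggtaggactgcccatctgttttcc
Counted from the start of the gene, the MUC13 window holds an HNF1 match at -245 and the TRIM31 window a TATA box match at -30. The TRIM31 window also holds a pair of overlapping Krüppel-like matches at -169 and -165. Neither window holds the CDX, GATA or FOXA letters. Of 35116 such windows of all genes, 6.88% hold the HNF1 letters, 34.3% the Krüppel-like, 11.5% the TATA box, 10.6% the CDX, 10.3% the GATA and 3.42% the FOXA letters. Windows were on hand for 28 of the 42 genes, 32 windows in all, and 7 held the HNF1 letters, 9 the Krüppel-like, 8 the TATA box, 7 the CDX, 4 the GATA and 3 the FOXA letters. A match is a stretch of letters and not a binding site.

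MUC20, a membrane mucin known to bind the receptor MET, lies beside MUC4 (chromosome 3, 196933536 to 196946046 for MUC20 and 196959310 to 197023545 for MUC4, hg18). Its intensity was 354, 363 and 393 on the shASPP2 arrays, against 641, 1139 and 962 on the shNon arrays. The knockdown values were again close together and below the scattered control values. The means were 370.1 ± 20.4 in shASPP2 and 914 ± 252 in shNon (SD, n = 3), and the log2 fold change was -1.27 (SE 0.242, limma adjusted p = 0.161). Its adjusted p was 0.00189 in the trend and robust fit and 0.0402 among features above the median level. The other 2 MUC20 features, which were less bright on average, had log2 fold changes of -1.09 and -0.66, and neither overlapped between the groups. They read the same RNA, so they are not independent measurements. MUC4, a large membrane mucin that binds ERBB2, averaged 628 ± 142 in shASPP2 and 659 ± 66.7 in shNon (SD, n = 3), with a log2 fold change of -0.09 (SE 0.218, limma adjusted p = 0.901), and its groups overlapped.

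MUC1, the membrane mucin of most simple epithelia, was the only gene of the list whose groups did not overlap towards higher values in shASPP2. Its intensity was 2448, 2424 and 2364 on the shASPP2 arrays, against 1938, 2075 and 1637 on the shNon arrays. The log2 fold change was small, 0.36 (SE 0.171, limma adjusted p = 0.480), and was not past the threshold under any alternative run. All 21 MUC1 features had a positive log2 fold change, between 0.08 and 0.53, and 7 of the 21 did not overlap. All of them read MUC1 transcripts from the same RNA, so they are not independent measurements.

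MUC17, a membrane mucin of the small intestine, had an intensity of 1949, 1052 and 2474 on the shASPP2 arrays, against 1902, 1958 and 267 on the shNon arrays. The values of the groups overlap widely, and shNon array 3 stands far below the other 5. Its log2 fold change was 0.78 (SE 0.780, limma adjusted p = 0.735) with all arrays and -0.17 (limma adjusted p = 0.888) without shNon array 3, so its sign rests on that array. Its second feature lay at 34.0 ± 7.33 in shASPP2 and 27.5 ± 8.68 in shNon (SD, n = 3), near the random-probe level in both groups. Its neighbour MUC12 was not above 2 times the random-probe level, at 54.1 ± 15.5 in shASPP2 and 43.8 ± 8.71 in shNon (SD, n = 3).

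**Figure D2:**
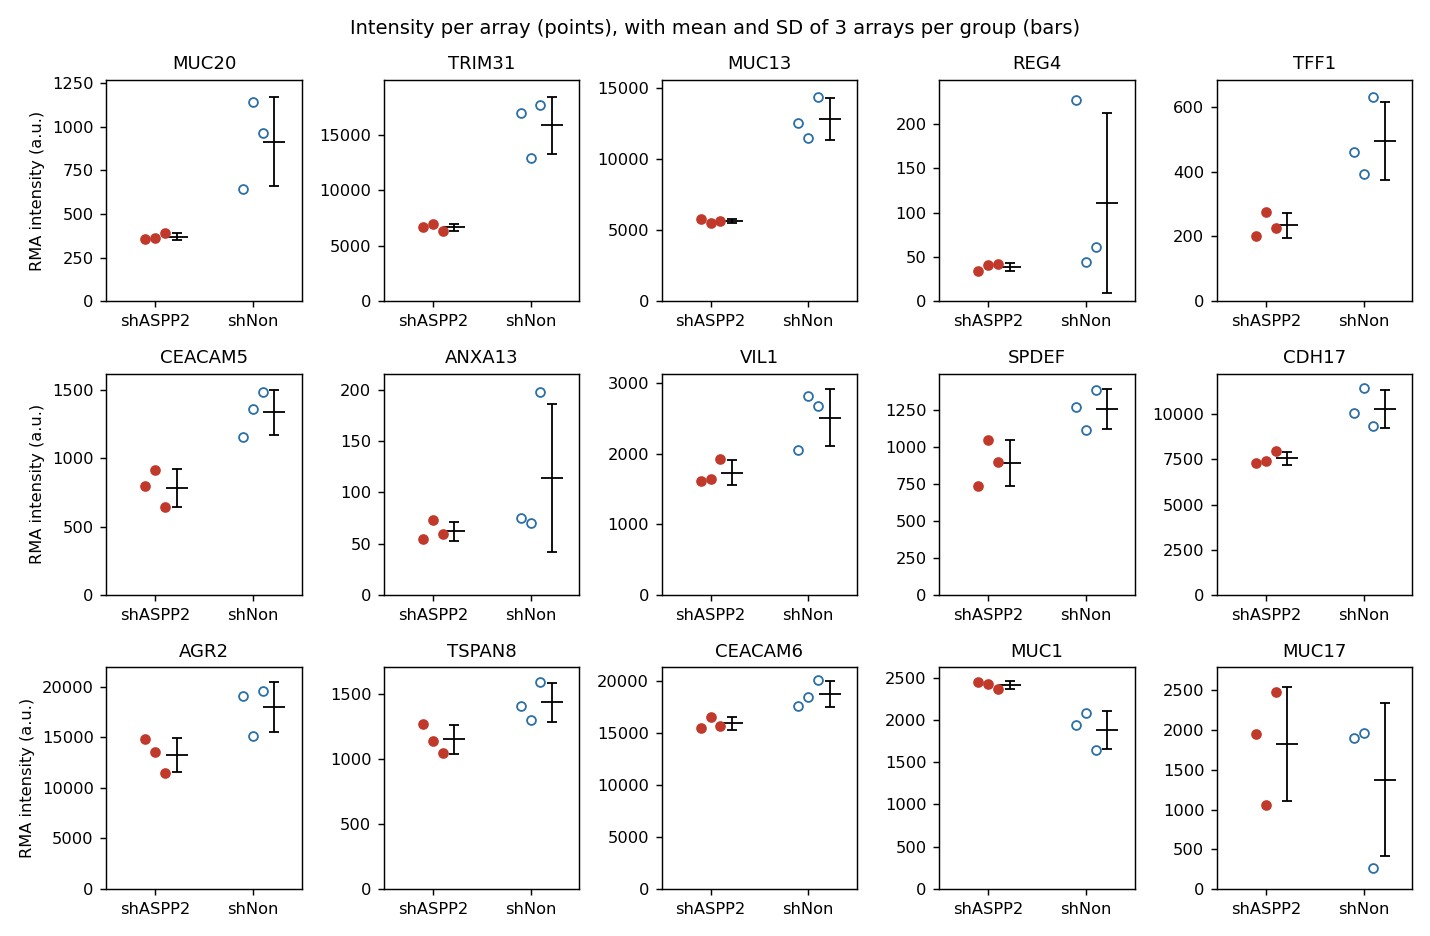
RMA intensity per array of the 15 genes above 2 times the random-probe level whose groups did not overlap or whose mean difference was at least 1.5-fold, shASPP2 filled red at left and shNon open blue at right, with mean and SD of 3 arrays beside the points, ordered from the most negative to the most positive log2 fold change. Each axis starts at 0. In 12 of the 15 all shASPP2 points lie below all shNon points, in MUC1 above them, and in ANXA13 and MUC17 the groups overlap.

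Of the 3 gel-forming mucins among the 42 genes, MUC5AC was above the line and MUC2 and MUC5B were not. MUC2, the main mucin of intestinal mucus, averaged 35.8 ± 1.77 in shASPP2 and 44.7 ± 7.16 in shNon, and MUC5B, an airway and salivary mucin, 36.9 ± 9.30 in shASPP2 and 45.5 ± 11.6 in shNon (SD, n = 3), both under 2 times the random-probe level. MUC5AC, the mucin of the stomach surface, was above it, with an intensity of 343, 130.4 and 385 on the shASPP2 arrays, against 199, 332 and 125 on the shNon arrays. Its arrays scattered widely within each group and overlapped, and the log2 fold change was 0.35 (SE 0.504, limma adjusted p = 0.819), between 0.01 and 0.84 when single arrays were dropped. MUC6, a gel-forming mucin of gastric glands outside the 42, lay at 22.2 times the random-probe level in its higher group, with overlapping groups and a log2 fold change of -0.34.

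Of the secreted and secretory genes, TFF1 had the smallest p. TFF1 is a small trefoil peptide of the gastric surface that is secreted with MUC5AC (chromosome 21, 42655459 to 42659713, hg18). Its intensity was 201, 277 and 226 on the shASPP2 arrays, against 462, 393 and 629 on the shNon arrays. The groups did not overlap, and the means were 235 ± 38.4 in shASPP2 and 495 ± 121 in shNon (SD, n = 3). The log2 fold change was -1.06 (SE 0.236, limma adjusted p = 0.203), and the adjusted p was 0.0225 with trend and robust variance. The other TFF1 feature had a log2 fold change of -1.10 without overlap. Its neighbours on chromosome 21, TFF2 and TFF3, the trefoil peptides of gastric glands and of goblet cells, were not above 2 times the random-probe level, with 25.1 ± 6.41 in shASPP2 and 28.6 ± 7.72 in shNon for TFF2 and 40.0 ± 10.9 in shASPP2 and 53.9 ± 7.65 in shNon for TFF3 (SD, n = 3).

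AGR2, a disulfide isomerase of the endoplasmic reticulum that is needed for intestinal mucus in mice, had an intensity of 14788, 13489.9 and 11466 on the shASPP2 arrays, against 19119, 15111 and 19613 on the shNon arrays. The arrays did not overlap, but the nearest values of the groups lay close together. The log2 fold change was -0.44 (SE 0.195, limma adjusted p = 0.458), with -0.26 and overlapping arrays on its other feature. AGR3, its neighbour and relative, averaged 30.7 ± 4.27 in shASPP2 and 43.1 ± 18.8 in shNon (SD, n = 3), near the random-probe level. REG4, a secreted lectin of the gut, had an intensity of 34.0, 41.0 and 41.7 on the shASPP2 arrays, against 227, 44.7 and 60.8 on the shNon arrays. Its groups did not overlap, but shNon array 1 alone is high and the knockdown arrays were near the random-probe level, so the log2 fold change of -1.14 (SE 0.565, limma adjusted p = 0.499) rests largely on that array and was -0.43 without it. OLFM4, a secreted glycoprotein of crypt stem cells, averaged 27.4 ± 3.33 in shASPP2 and 31.3 ± 4.26 in shNon (SD, n = 3), at the random-probe level.

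Among the adhesion genes, CEACAM5, CDH17, TSPAN8 and CEACAM6 were lower in shASPP2 without overlap, and none passed the test. CEACAM5, the carcinoembryonic antigen itself, had an intensity of 797, 914 and 640.1 on the shASPP2 arrays, against 1158, 1362 and 1483 on the shNon arrays. The log2 fold change was -0.78 (SE 0.205, limma adjusted p = 0.257), with 0.0175 as the adjusted p with trend and robust variance. Its other feature had -0.50, also without overlap. CDH17, the liver-intestine cadherin, had an intensity of 7326, 7405 and 7958 on the shASPP2 arrays, against 10053, 11458 and 9363 on the shNon arrays. The difference was modest, with a log2 fold change of -0.44 (SE 0.168, limma adjusted p = 0.394) and -0.52 without overlap on the other feature.

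CEACAM6, a lipid-anchored relative of CEACAM5, had an intensity of 15427, 16551 and 15684 on the shASPP2 arrays, against 17569, 18460.2 and 20023 on the shNon arrays, a log2 fold change of -0.23 (SE 0.160, limma adjusted p = 0.618), and -0.15 and -0.15 on its other features. TSPAN8, a tetraspanin of gut and pancreatic tumours, had an intensity of 1273, 1136 and 1046 on the shASPP2 arrays, against 1412, 1304 and 1598 on the shNon arrays, with a log2 fold change of -0.32 (SE 0.177, limma adjusted p = 0.541). These are small shifts in which the arrays are ordered but the intervals of the fold change include 0. CEACAM1, an adhesion receptor of epithelia and bile canaliculi, averaged 10197 ± 1391 in shASPP2 and 11312 ± 2744 in shNon (SD, n = 3) with overlapping groups, and its features had log2 fold changes from -0.18 to 0.24. The genes of the CEA family lie in a cluster on chromosome 19 and are so alike that features of this array may not separate them, which makes the single values of CEACAM1, CEACAM5 and CEACAM6 uncertain.

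LGALS4, galectin-4, a glycan-binding protein of the gut that takes part in apical transport, had an intensity of 15434, 17016 and 16037 on the shASPP2 arrays, against 16755, 18168 and 19311 on the shNon arrays. The groups overlapped, and the log2 fold change was -0.16 (SE 0.162, limma adjusted p = 0.740), with a 95% interval from -0.54 to 0.22. EPCAM, an adhesion protein of most epithelia outside the mature hepatocyte, was at the random-probe level on both of its features, with 34.8 ± 13.4 in shASPP2 and 29.3 ± 4.91 in shNon on the feature used and 34.8 ± 6.03 in shASPP2 and 27.8 ± 5.14 in shNon on the other (SD, n = 3). CEACAM7 averaged 27.4 ± 4.80 in shASPP2 and 31.2 ± 9.19 in shNon and GPA33, the A33 antigen of intestinal cells, 51.6 ± 15.3 in shASPP2 and 71.0 ± 35.7 in shNon (SD, n = 3).

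The brush border genes were split in level. VIL1, villin, which bundles the actin of microvilli, had an intensity of 1612, 1640.0 and 1928 on the shASPP2 arrays, against 2047, 2806 and 2669.7 on the shNon arrays. The groups did not overlap, with a log2 fold change of -0.53 (SE 0.196, limma adjusted p = 0.383), while its other feature had -0.33 and overlapped. The peptidases DPP4 and ANPEP were far above the random-probe level and did not separate the groups, with 4905 ± 914 in shASPP2 and 4904 ± 507 in shNon for DPP4 and 1640.3 ± 245 in shASPP2 and 1538 ± 399 in shNon for ANPEP (SD, n = 3). Their log2 fold changes were -0.01 (95% interval -0.48 to 0.46) and 0.11 (95% interval -0.45 to 0.68). The other ANPEP feature pointed the opposite way, at -0.13.

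ANXA13, an annexin of the intestinal apical membrane, was dim, at 54.7, 72.7 and 59.6 on the shASPP2 arrays, against 74.9, 70.5 and 198 on the shNon arrays. It overlapped on this feature, where shNon array 3 alone is high. The log2 fold change was -0.71 (SE 0.403, limma adjusted p = 0.549), and -0.23 without that array. Its other feature read 28.9, 51.0 and 46.0 on the shASPP2 arrays, against 123, 85.4 and 116 on the shNon arrays, and there the groups did not overlap (-1.39 log2, limma adjusted p = 0.163 over all features). FABP2, the intestinal fatty acid-binding protein, the disaccharidase SI, the metalloprotease MEP1A and the guanylin receptor GUCY2C were not above 2 times the random-probe level. Their groups overlapped, and single arrays stood out, with FABP2 at 98.5 on shNon array 1 and GUCY2C at 84.3 on shNon array 3.

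Of the transcription factors of the gut, CDX2 was above 2 times the random-probe level and CDX1 was not. CDX2 had an intensity of 316, 374 and 431 on the shASPP2 arrays, against 279.6, 362 and 578 on the shNon arrays. The groups overlapped, with a log2 fold change of -0.07 (SE 0.293, limma adjusted p = 0.946) and a 95% interval from -0.76 to 0.62. Differences inside that interval are compatible with these 3 arrays per group, and a larger one could also miss the threshold over all genes. The sign of the CDX2 fold change turned without shNon array 3 (0.22) and without shASPP2 array 1 (0.05). CDX1 averaged 43.5 ± 7.71 in shASPP2 and 46.2 ± 18.6 in shNon and ATOH1 27.9 ± 4.88 in shASPP2 and 34.1 ± 3.85 in shNon (SD, n = 3). SPDEF, the ETS factor of goblet cells, had an intensity of 734, 1043 and 900.2 on the shASPP2 arrays, against 1270.2, 1113 and 1382 on the shNon arrays. Its groups did not overlap, with a log2 fold change of -0.50 (SE 0.201, limma adjusted p = 0.412) and -0.32 without overlap on the other feature.

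The other factors overlapped between the groups on the feature used. KLF5, a factor of proliferating crypt cells, averaged 3143 ± 336 in shASPP2 and 3749.6 ± 319.9 in shNon (SD, n = 3; log2 fold change -0.26). KLF4, a factor of differentiated gut cells, averaged 967 ± 87.5 in shASPP2 and 802 ± 111 in shNon (SD, n = 3; 0.28 log2), and its other feature was higher in shASPP2 without overlap, at 1012 ± 70.3 in shASPP2 and 690.1 ± 48.2 in shNon (0.55 log2; limma adjusted p = 0.310 over all features). The endoderm factors GATA4 and GATA6 averaged 548 ± 84.3 in shASPP2 and 522 ± 43.6 in shNon for GATA4 and 400.3 ± 42.5 in shASPP2 and 416 ± 60.8 in shNon for GATA6 (SD, n = 3), with log2 fold changes of 0.06 and -0.05.

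The array holds 94 features of the 42 genes, and 52 of them had no part in standing for a gene. The genes above 2 times the random-probe level had 40 further features above it, and 36 of these 40 had the sign of the feature used, 20 of them being MUC1 features. Those that did not were 1 feature each of CEACAM1, MUC4, ANPEP and GATA6, with log2 fold changes of 0.24, 0.01, -0.13 and 0.01 in that order. Adjusted over all 45033 features, 0 of the 94 passed, and the smallest adjusted p was 0.0984.

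**Figure D3:**
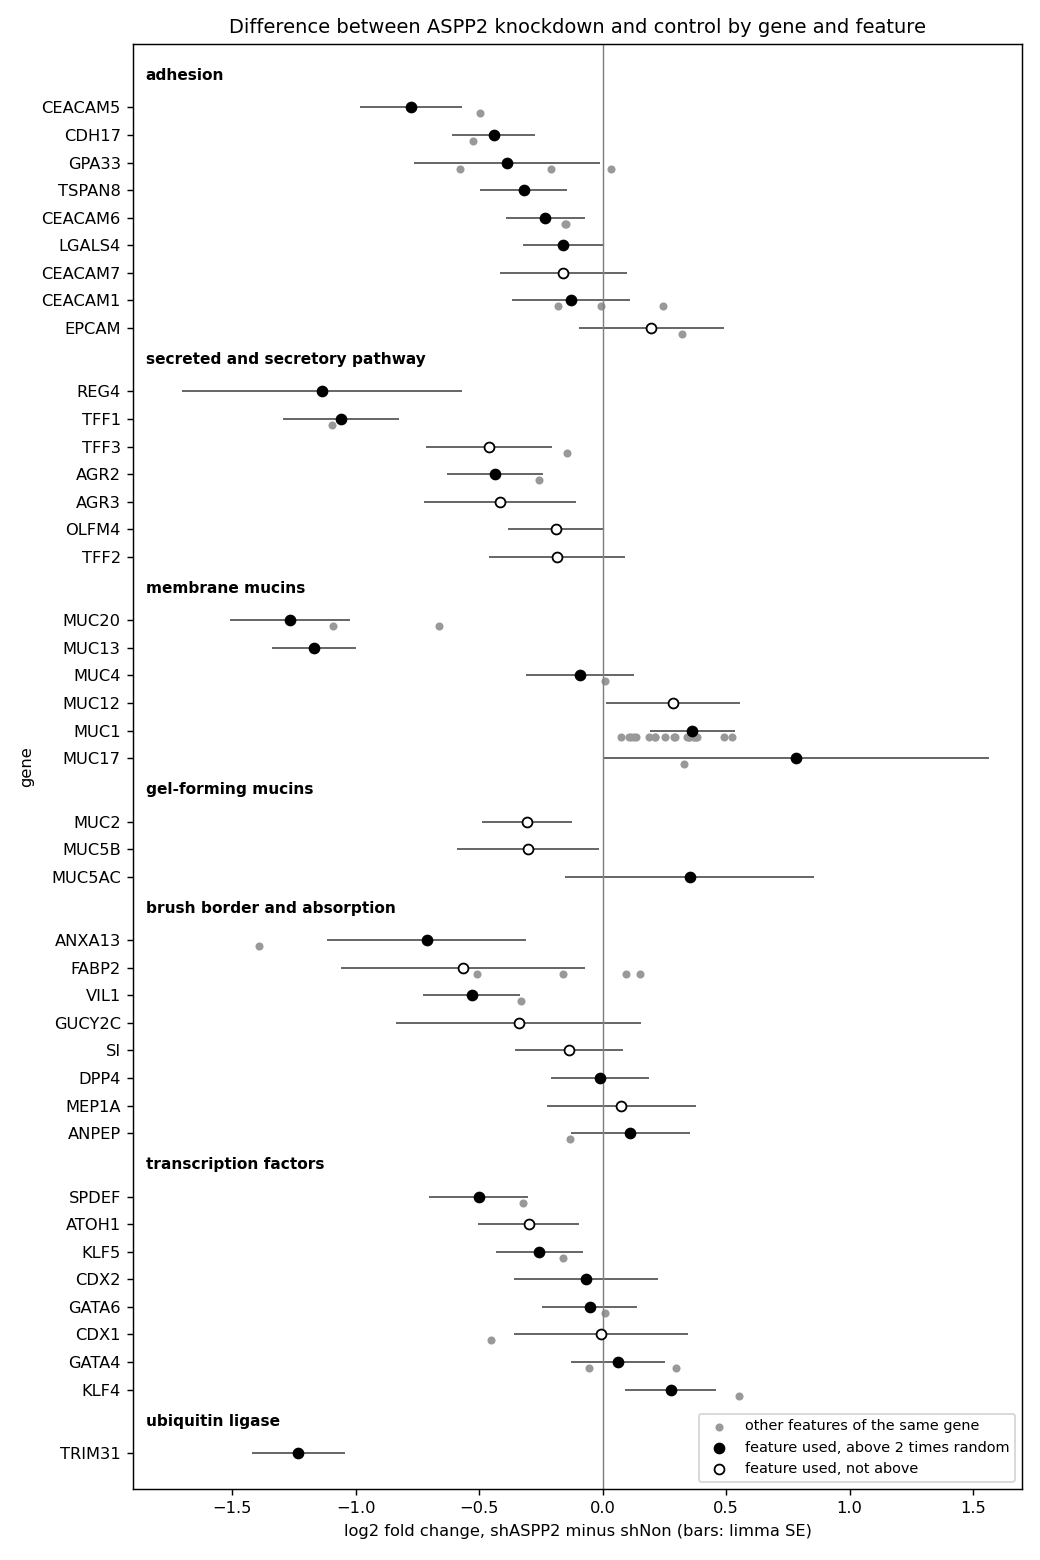
Log2 fold change, shASPP2 minus shNon, of the 42 genes by role, with limma's SE as bars. Filled points are features above 2 times the random-probe level, open points features that are not, and grey points the other features of the same gene. TRIM31, MUC20, MUC13 and TFF1 lie beyond -1 with narrow bars, and REG4 and MUC17 have wide ones.

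Other genes of the same tissues were looked up from lists that name none of the 42. None of them passed limma's adjusted p over all genes in either direction. At an unadjusted p under 0.05, the lists of goblet cell, transcription factor and brush border genes held 7 of 24, 6 of 24 and 3 of 28 genes lower (5.93% of all genes) and 2, 1 and 0 higher in shASPP2 (5.54% of all genes). Each of the other 5 lists held at most 2 in a direction. Of 28 brush border and absorptive genes 16 were above the line, or 57.1%, next to 63.8% of all genes. Without overlap, 5 of the 28 were lower and 2 higher in shASPP2, next to 9.52% and 9.3% of all genes, and the median was -0.11 log2. SLC15A1, the intestinal peptide transporter, averaged 276 ± 40.2 in shASPP2 and 653 ± 41.0 in shNon (SD, n = 3) with a log2 fold change of -1.25 (SE 0.181, limma adjusted p = 0.103). USH1C, harmonin, which links microvilli, averaged 1146 ± 140.4 in shASPP2 and 2145 ± 288 in shNon (SD, n = 3; -0.90 log2, limma adjusted p = 0.191).

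Of 24 genes of goblet cell secretion and mucin glycosylation 16 were above the line. Without overlap 7 of the 24 were lower, next to 9.52% of all genes, and 2 were higher, near the 9.3% of all genes, and the median was -0.30 log2. TMPRSS2, a membrane serine protease of gut and prostate epithelium, averaged 449 ± 91.9 in shASPP2 and 1446 ± 61.5 in shNon (SD, n = 3) with a log2 fold change of -1.71 (SE 0.204, limma adjusted p = 0.0518), just over the threshold. ZG16, a lectin of intestinal mucus, was dim, at 38.5 ± 9.74 in shASPP2 and 81.5 ± 16.6 in shNon (SD, n = 3; -1.10 log2, limma adjusted p = 0.223). Of 10 other mucins measured 5 were above the line, and without overlap 3 were lower and 0 higher (9.52% and 9.3% of all genes), with a median of -0.25 log2. MUC3B, an intestinal membrane mucin, averaged 2310.2 ± 47.6 in shASPP2 and 3782 ± 236 in shNon (SD, n = 3; -0.71 log2, limma adjusted p = 0.203), and the sialomucin CD164 had -0.46 log2.

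Of 24 other gut and foregut transcription factors 16 were above the line. Without overlap 6 of the 24 were lower and 3 higher, next to 9.52% and 9.3% of all genes. The 3 were all among the 16 above the line, next to 12.3% of all genes above it. The median was -0.11 log2. SOX9, a factor of crypt and duct cells, averaged 42.8 ± 10.5 in shASPP2 and 98.5 ± 14.4 in shNon (SD, n = 3), with -1.22 log2 (limma adjusted p = 0.161). It was dim, at 1.40 times the random-probe level in shASPP2 and 3.03 times in shNon. The pioneer factor FOXA1 averaged 314 ± 45.1 in shASPP2 and 589 ± 68.8 in shNon (SD, n = 3; -0.91 log2, limma adjusted p = 0.191). Of 10 other galectins 6 were above the line, with 2 lower and 0 higher without overlap (9.52% and 9.3% of all genes) and a median of -0.24 log2, and LGALS8 (-0.59) and LGALSL (-0.35) had the smallest p-values.

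The remaining lists had medians above 0. Their counts without overlap were small, next to 9.52% lower and 9.3% higher of all genes. Of 7 other CEA family genes 5 were above the line, 0 were lower and 1 was higher without overlap, and the median was 0.13 log2, with CEACAM3 at 0.16 and CEACAM19 at 0.20 (-0.35 without shNon array 1). CEACAM3 lay at 419 times the random-probe level in shASPP2, and CEACAM4 at 41.1 times in its higher group. As for CEACAM1, CEACAM5 and CEACAM6, features may not separate these genes from their relatives, so their levels are uncertain. Of 14 crypt stem and Paneth cell genes 5 were above the line, 1 was lower and 1 higher without overlap, and the median was 0.07 log2. EPHB2, a guidance receptor of crypt cells, averaged 372 ± 45.7 in shASPP2 and 205 ± 98.1 in shNon (SD, n = 3), with 0.95 log2 (limma adjusted p = 0.357). The lysozyme gene LYZ had 0.74 log2 but was dim, at 2.20 times the random-probe level in shASPP2, and its groups overlapped. Of 10 stomach epithelium genes 3 were above the line, 1 was lower and 2 higher without overlap, and the median was 0.23 log2, with VSIG1 at 0.46 and ANXA10 at 0.27.

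**Figure D4:**
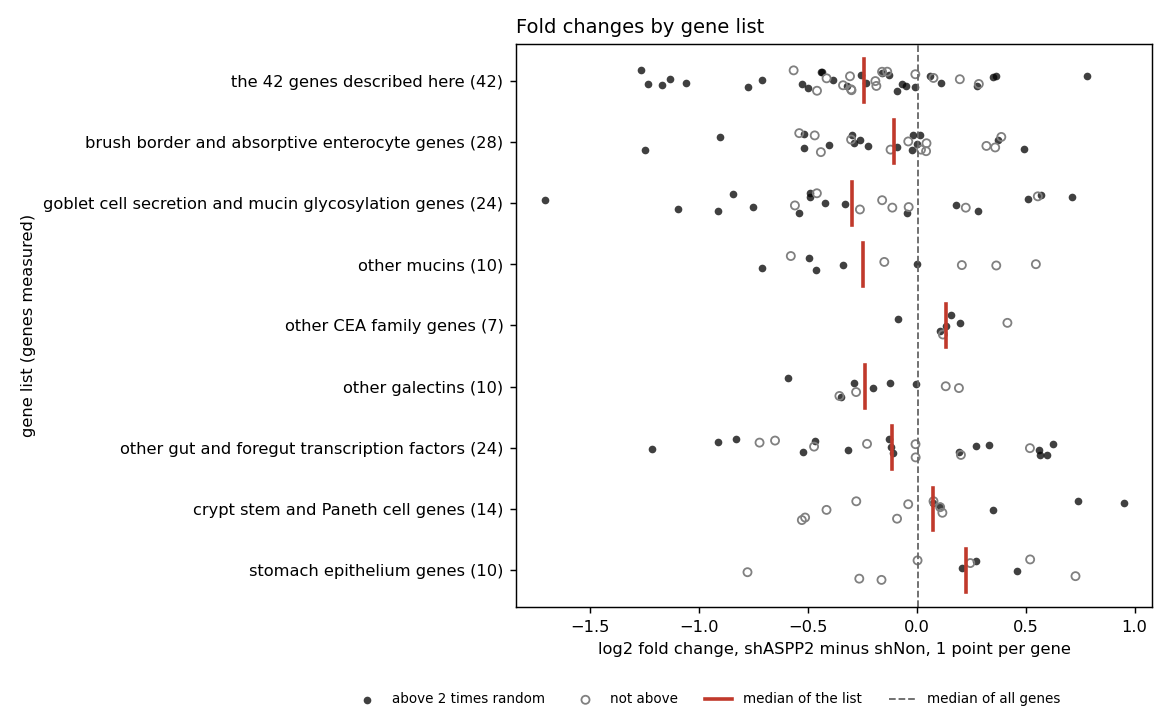
Log2 fold change, shASPP2 minus shNon, of every measured gene of the 42 and of 8 related lists, 1 point per gene, filled where the gene is above 2 times the random-probe level and open where it is not. Red bars are list medians, from -0.30 for goblet cell secretion and glycosylation to 0.23 for stomach epithelium, and the dashed line is the median of all genes, 0.01.

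Some markers of other cell types also stood apart between the groups, but of these lists the 3 fibrinogen genes alone passed over all genes. The summed intensity of the 14 hepatocyte genes was between 6796 and 7468 on the shASPP2 arrays and between 14281 and 16553 on the shNon arrays. FGA fell to 1535 ± 103 in shASPP2, against 5094 ± 528 in shNon, FGB to 1128 ± 175 in shASPP2, against 3727 ± 293 in shNon, and FGG to 303 ± 19.9 in shASPP2, against 1744 ± 315 in shNon (SD, n = 3; 0.0593% of all genes were called lower), and these 3 carry most of the difference in the sum. Of the 14, 5 were lower and 2 higher in shASPP2 without overlap, next to 9.52% and 9.3% of all genes. The 5 were the fibrinogen genes, TF (-0.39 log2) and ALB (-0.34), all above the line. TTR (0.62 log2) and SERPINA1 (0.83), both under the line, were the 2 higher, and AFP (0.72) overlapped. The summed intensity of 6 cholangiocyte markers was between 9749 and 10953 on the shASPP2 arrays and between 7942 and 8823 on the shNon arrays. Most of this sum was SPP1, at 8404 ± 670 in shASPP2 and 7348 ± 280 in shNon (SD, n = 3). Of these 6, KRT7, AQP1 (1.06 log2) and SPP1 (0.19) were higher without overlap, next to 9.3% of all genes. AQP1 was dim, at 2.42 times the random-probe level in shASPP2 and 1.04 times in shNon, and KRT19 (0.63 log2) overlapped. SCTR (-0.83), under the line, was lower without overlap, next to 9.52%, and CFTR, also under the line, overlapped. KRT7 read 2099, 1535 and 1881 on the shASPP2 arrays, against 1073, 1229 and 192 on the shNon arrays, where shNon array 3 alone is low, and its log2 fold change was 1.53 with all arrays and 0.67 without that one. The 4 endothelial markers summed to between 958 and 1191 on the shASPP2 arrays and between 1982 and 2089 on the shNon arrays, most of it PECAM1 (-0.96 log2). The part of these shifts in the values above was not tested. In all, 2 of 4 endothelial, 4 of 8 fibroblast, 1 of 5 enteroendocrine and 2 of 6 leukocyte markers were above the line. The leukocyte markers above it were ITGAM and LYZ, at 8.61 and 2.20 times the random-probe level in shASPP2. The enteroendocrine marker above it was SYP, at 13.6 times that level in shNon. The leukocyte marker PTPRC and the endocrine markers CHGA and CHGB were not above the line. The sums of the fibroblast, leukocyte and enteroendocrine markers overlapped between the groups, at between 642 and 775 on the shASPP2 arrays and between 554 and 754 on the shNon arrays for fibroblasts, between 379 and 593 on the shASPP2 arrays and between 337 and 529 on the shNon arrays for leukocytes and between 363 and 617 on the shASPP2 arrays and between 304 and 929.8 on the shNon arrays for enteroendocrine cells.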

How the data were processed

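Total RNA of 6 HCC-LM3 cultures, 3 per group, was hybridised to 1-colour NimbleGen arrays. The authors deposited 1 linear intensity per feature and sample, and per the submitters' processing notes RMA was used; its version, its settings and the scanner software are not stated there. RMA commonly includes background correction, quantile normalisation and a summary over probes, which compresses fold changes of dim genes and hides differences in total RNA. The series' value table held identical numbers (0 differing cells).

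Of 45033 features, 38916 were named by gene identifier in a RefSeq table of GRCh38.p14, 78 by accession and 3954 by the file's own name, and 2085 stayed unnamed. Coordinates of features are on hg18, per the file headers. Log2 intensities of the 23593 genes were fitted with limma 3.58.1 (lmFit, eBayes; R 4.3.3) on group alone, and Benjamini-Hochberg adjustment was over all genes with a threshold of 0.05. Log2 fold changes are shASPP2 minus shNon, p-values are two-sided and the number of arrays limits the precision. A gene was represented by its feature of highest mean log2 intensity, and the random-probe row entered no fit. No batch could be examined, as scan dates and slides were not used here.

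Genes were given array by array where their higher group mean was above 2 times the random-probe level and their groups did not overlap or differed by at least 1.5-fold. In each related list, the 2 genes above that level with the smallest p were named. Values given outside these rules were chosen after they were seen. The 42 genes and all lists were chosen with earlier results of these data known. MUC3A and CEACAM18 of the lists were not matched. Alternatives were median centring, cyclic loess, the value table, both filters on dim features, trend and robust variance, array weights, the replicate block, leaving out each array, the mean over a gene's features, adjustment over all features, and 1.5 or 3 times the random-probe level.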

Additional observations from a re-analysis of the deposited data

How the results depend on the processing

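Intensities near the random-probe level give no reliable fold, and 3 arrays per group limit every value. Over all genes the count past the threshold was 24 (10 higher and 14 lower); it was 29 (9 and 20) after median centring, 25 (8 and 17) after cyclic loess, 247 with features above the median level, 84 with features above 2 times the random-probe level, 506 with trend and robust variance, 40 with the mean over all features of a gene, 62 with adjustment over all features, and between 0 and 6 without 1 array (1686 to 3106 at an unadjusted p under 0.05, against 2705 with all), whichever of the 6 it was. Of the 42 genes, 0 passed in the original fit; 3 (MUC13, TRIM31 and MUC20) passed with features above the median level, where 1.25% of the genes tested were called lower, 2 (MUC13 and TRIM31) with features above 2 times the random-probe level, where 0.325% were, and 5 (with CEACAM5 and TFF1) with trend and robust variance, where 1.15% were. These filters test fewer genes, and trend and robust variance takes the spread from genes of like intensity. The filter at 2 times the random-probe level used the higher group mean and so was not independent of the comparison. The other alternatives called 0 of the 42, with 5 to 10 at an unadjusted p under 0.05.

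With the replicate block 0 genes passed (2208 at an unadjusted p under 0.05 in limma), and its extra terms leave fewer degrees of freedom. Deviations from the group means correlated at r = 0.0760, -0.0975 and -0.136 for the pairs 1, 2 and 3. For unlike replicate numbers r lay between -0.110 and 0.176. These values show no pairing by replicate number, but 3 arrays per group cannot exclude it. The count of genes above 2 times the random-probe level (27 of 42) stayed between 24 and 30 and the median fold change (-0.24) between -0.28 and -0.19 log2 over the alternatives run for them. The count without overlap (14, of which 13 lower) was between 12 and 19. Leaving out 1 array can keep or raise this count but not lower it, as fewer arrays have to separate. The share over all genes was not counted in those runs, so the range does not measure stability. CDX2, LGALS4 and MUC5AC were added to these repeats after the data were seen. Of 302 recomputed fold changes of the 18 genes shown array by array and of TP53BP2, 4 changed sign. Many of the 302 could not change. The value table, both filters on dim features, trend and robust variance, the replicate block and adjustment over all features leave a fold change as it was. The mean over a gene's features does so for genes with a single feature. The 4 changes came from leaving out an array and from array weights. MUC17 was between -0.17 and 1.27 without 1 array (-0.17 without shNon array 3). CDX2 was between -0.30 and 0.22 without 1 array, positive without shNon array 3 (0.22) or shASPP2 array 1 (0.05), and 0.0629 with array weights. Of the 302, 11 passed the threshold where the original fit did not.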
